A study of Mus musculus with 8 samples.

Results

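Secreted WNT antagonists and transcripts that report WNT signalling were followed through all probe sets assigned to a single one of 9 gene symbols: Dkk1, Dkk2, Dkk3, Sfrp1, Sfrp2, Sfrp4, Wif1, Axin2 and Lef1. The assignment gave 17 probe sets, of 45037 that were tested and 45101 on the array. Of these, 13 probe sets belong to the 7 antagonist genes and 4 belong to the readout genes Axin2 and Lef1. The RNA came from corneas of mice described as overexpressing TGF-beta (4 arrays, here TGFB) and of their wildtype littermates (4 arrays). The labels give neither the TGF-beta isoform nor the promoter, the cells that make it, the strain or the age, and they do not tie an array to an animal, so the p-values below measure the spread between arrays, which may be technical.

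WNT proteins are secreted lipid-modified ligands that bind Frizzled receptors together with the co-receptors LRP5 or LRP6, which stabilises beta-catenin and lets it act in the nucleus with TCF and LEF factors. Typical DKK proteins such as DKK1 block the pathway at LRP5 and LRP6, while SFRP proteins and WIF1 bind WNT ligands outside the cell. In the mouse eye, Dkk2 is known to be needed for the ocular surface to become cornea: without it the surface takes on skin character with hair follicles. Axin2, a scaffold of the complex that degrades beta-catenin, and Lef1, a DNA-binding partner of beta-catenin, are themselves transcribed in response to WNT signals in many tissues.

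RefSeq promoter entries (GRCm38.p6) were found for 6 of the 9 genes, with 9 start sites in all. The 250 bases before the start are shown for Dkk2, the gene whose groups separated most clearly below, and for Dkk1, a gene of the same family whose arrays did not separate. The Dkk2 stretch lies at chr3:132085042-132085291 on the plus strand and the Dkk1 stretch at chr19:30549497-30549746 on the minus strand. Capitals mark a TATA motif (TATAAA, read on the gene's strand) and the TCF/LEF motif CTTTGNN with each N an A or a T, read on both strands.
Dkk2: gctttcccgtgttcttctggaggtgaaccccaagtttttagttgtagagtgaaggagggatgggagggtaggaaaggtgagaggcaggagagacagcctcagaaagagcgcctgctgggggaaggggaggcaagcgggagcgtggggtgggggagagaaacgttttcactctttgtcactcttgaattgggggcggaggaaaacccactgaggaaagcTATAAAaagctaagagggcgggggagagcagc
Dkk1: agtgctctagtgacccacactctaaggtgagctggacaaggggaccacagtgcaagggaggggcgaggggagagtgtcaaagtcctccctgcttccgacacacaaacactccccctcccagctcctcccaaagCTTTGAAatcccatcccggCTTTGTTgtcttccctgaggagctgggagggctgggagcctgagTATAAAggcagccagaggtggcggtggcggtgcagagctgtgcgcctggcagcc
Dkk1 held 2 TCF/LEF motifs, which begin 117 and 98 bases before the start, and Dkk2 held none. A TCF/LEF motif occurred in 14.8% of all 32851 promoter stretches of the same length, so a match or its absence only describes these letters. TATAAA on the gene's strand occurred in 7.59% of the stretches and stood 32 bases before the start in Dkk2 and 54 in Dkk1.

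The arrays carried the markers of cornea and also those of neighbouring tissue in unequal amounts. Krt12, the keratin of corneal epithelium, ranged over 289 to 4551 across TGFB arrays and 562 to 5766 across wildtype arrays in signal. Keratocan (Kera), of stromal keratocytes, spanned 2073 to 4154 across TGFB arrays and 2538 to 8110 across wildtype arrays. TGFB 1, TGFB 2 and wildtype 2 were rich in cornified epidermis and hair follicle transcripts. The mean log2(signal + 16) of 7 cornified epidermis genes was 12.32, 12.67 and 11.58 in those arrays and 6.16 to 7.14 in the other 5. Wildtype 4 had the highest Gapdh 3'/5' signal ratio, 6.41, against 2.19 to 4.31 elsewhere. A high ratio is a sign of RNA decay. The same array had the lowest Krt12 of the wildtype arrays (562) and the highest Kera of all arrays (8110). In results that depend on wildtype 4, RNA quality and tissue content cannot be told apart. Below, log2 values are log2(signal + 16), differences are TGFB minus wildtype on that scale with the moderated standard error (SE), and means are given ± SD over 4 arrays.

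Limma called none of the 17 probe sets at an adjusted p under 0.05, as it called 0% of all 45037. At an unadjusted p under 0.05, 2 of the 17 were lower in TGFB corneas (Dkk2 and the dimmest Sfrp1 probe set), where 3.16% of all probe sets were, and 0 were higher, where 2.7% were. The groups did not overlap for 1 of the 17, Dkk2, which was lower in every TGFB array, where 1.81% of all probe sets did so. None of the 17 was higher in every TGFB array, as 1.47% of all probe sets were. By sign alone, 13 of the 17 probe sets had the lower mean in TGFB corneas, against 48.4% of all probe sets, but 5 of those 13 measure Sfrp1 and are not separate genes. The median difference was -0.26 over the 17 probe sets and 0.009 over all 45037.

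**Figure D1:**
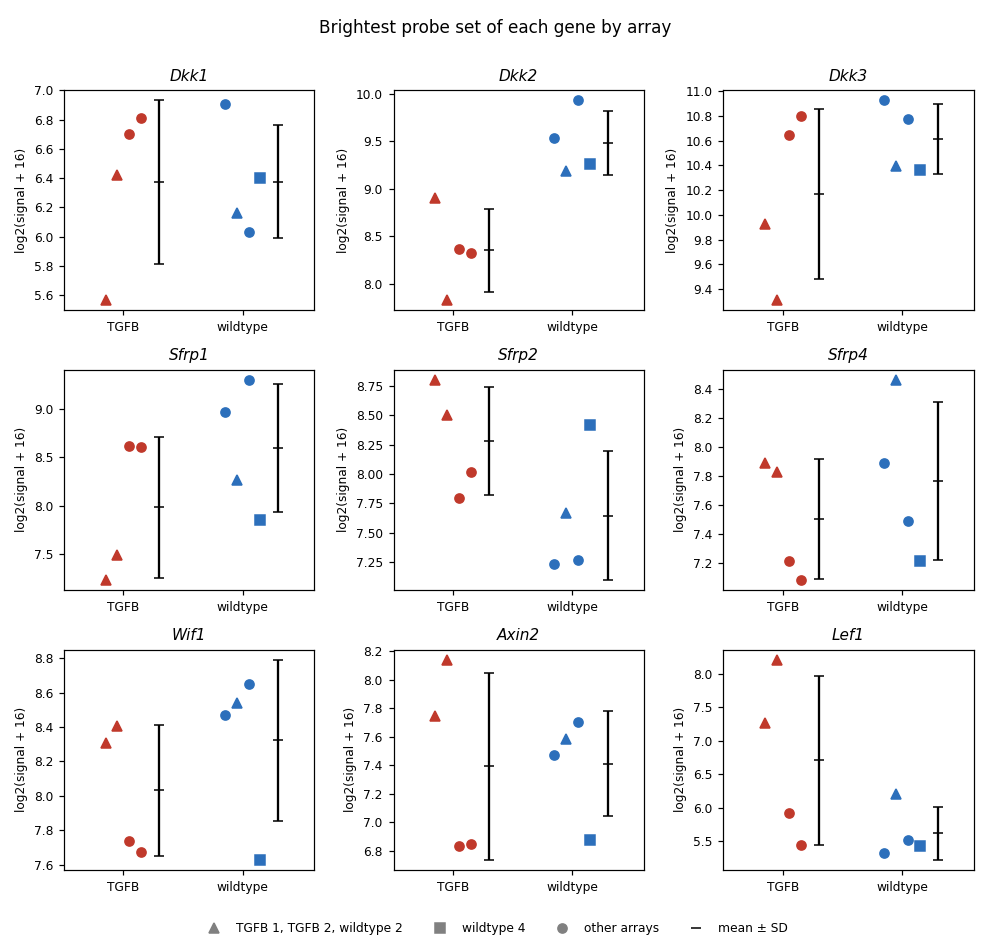
Values of the brightest probe set of each of the 9 genes on each array, in log2(signal + 16), with TGFB arrays in red and wildtype arrays in blue and the mean ± SD (n = 4) beside each group; each panel has its own axis. Dkk2 is the panel in which the groups do not overlap; triangles mark TGFB 1, TGFB 2 and wildtype 2, and the square marks wildtype 4.

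Dkk2, whose action on LRP5 and LRP6 depends on its partners, showed the clearest separation of the 9 genes. Its only probe set, 1420512_at, had signals of 461, 212, 315 and 304 in TGFB arrays 1 to 4, against 727, 566, 965 and 600 in wildtype arrays 1 to 4. Every TGFB array lay below every wildtype array, and the highest TGFB value came from TGFB 1. On the log2 scale, TGFB corneas averaged 8.36 ± 0.44 and wildtype corneas 9.48 ± 0.34. The difference was -1.13 (SE 0.25, 95% confidence interval -1.69 to -0.56), and the mean signal in TGFB corneas was 0.452 times that in wildtype corneas. The unadjusted limma p was 0.00137 and the adjusted p 0.822, so the difference did not pass over all probe sets, where it had the 70th smallest p. An exact two-sided permutation test gave p = 0.0286, the smallest that 4 against 4 arrays allow. In whole tissue, fewer Dkk2-expressing cells and less Dkk2 RNA per cell cannot be told apart.

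The Dkk2 difference kept its sign in all 20 alternative settings. Leaving out 1 array at a time gave -1.31 (without TGFB 1) to -0.95 (without TGFB 2). Without the 3 arrays rich in cornified transcripts, TGFB 3 and TGFB 4 against wildtype 1, wildtype 3 and wildtype 4, it was -1.23 (SE 0.25).

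Most marker lists had lower mean log2 levels in TGFB arrays, the direction of Dkk2. They were the pigment cell (-1.78), retina (-1.02), lens (-0.99), keratocyte (-0.63) and nerve sheath (-0.51) lists. Smaller differences were those of the connective tissue fibroblast (-0.35), macrophage (-0.32), skeletal muscle (-0.31), corneal epithelium (-0.30) and vascular endothelium (-0.27) lists. The cornified epidermis (1.63), hair follicle (0.79) and cartilage (0.24) lists had higher levels. All 7 pigment cell markers had lower means in TGFB arrays; their summed signal ran from 3142 to 14637 in TGFB and from 14318 to 31004 in wildtype arrays, and none was at 0. All 7 keratocyte markers were lower as well, with sums of 14957 to 19822 in TGFB and of 19219 to 31934 in wildtype arrays. Fitted with the pigment list mean beside the group, the Dkk2 difference was -1.07 (SE 0.40, limma unadjusted p of 0.0262, adjusted p = 1.00). Of 7 retina genes, 6 were measured, and their sums were 114.8 to 613 across TGFB arrays and 376 to 4142 across wildtype arrays. Of these 6, 3 (Gnat1, Pde6b and Prph2) never passed a signal of 64. The highest skeletal muscle sum was that of TGFB 1 (23341). The part of pigment cell markers in the Dkk2 difference was not tested beyond the fit that holds their mean. That of the other lists with lower levels in TGFB arrays was not tested.

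Dkk1, the founding inhibitor of the family, was dimmer in its brightest probe set than the other antagonist genes in theirs. That probe set, 1420360_at, lay at percentile 62.9 of all probe sets by mean log2 value. The Dkk1 probe sets did not give the same picture. Probe set 1420360_at had signals of 31.4, 69.8, 87.8 and 96.0 in TGFB arrays, against 103.9, 55.7, 49.6 and 68.5 in wildtype arrays. The groups overlapped: wildtype 1 was highest and TGFB 1 lowest, and between them the other TGFB arrays stood above the other wildtype arrays. Without TGFB 1 the difference was 0.27. The means were 6.37 ± 0.56 in TGFB and 6.38 ± 0.38 in wildtype corneas (difference over all arrays -0.0029, SE 0.30, limma adjusted p = 1.00). The 95% confidence interval ran from -0.67 to 0.66. Probe set 1458232_at had 39.2, 45.8, 148.2 and 94.6 in TGFB arrays, against 68.3, 20.1, 21.1 and 83.6 in wildtype arrays. TGFB 3 was highest there and wildtype 2 and wildtype 3 were lowest, with an overlap between groups and a difference of 0.61 (SE 0.44, adjusted p = 0.911). Leaving out 1 array gave 0.32 (without TGFB 3) to 0.88 (without wildtype 4). Without the 3 cornified arrays it was 0.99 (SE 0.46), and beside the cornified epidermis list mean it was 0.95 (SE 0.28, limma unadjusted p of 0.00930, adjusted p = 0.742).

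Dkk3, a divergent family member that does not act as a typical LRP6 blocker, was bright, and TGFB 1 and TGFB 2 set its spread. Probe set 1448669_at had 956, 619, 1587 and 1769 in TGFB arrays, against 1938, 1330, 1734 and 1300 in wildtype arrays. TGFB 1 and TGFB 2 were below all wildtype arrays, while TGFB 3 and TGFB 4 lay within the wildtype range. TGFB corneas had an SD of 0.69 and wildtype corneas one of 0.28. The difference of -0.44 (SE 0.32, adjusted p = 0.911) was 0.035 without the 3 cornified arrays. Probe set 1417312_at had 548, 280, 1269 and 1572 in TGFB arrays, against 1059, 646, 872 and 876 in wildtype arrays. Here TGFB 3 and TGFB 4 were the highest of all 8 arrays and TGFB 1 and TGFB 2 the lowest, so the difference of -0.18 (SE 0.48, adjusted p = 0.977) averages over TGFB arrays on both sides of the wildtype arrays. Without the 3 cornified arrays it was 0.59 (SE 0.21, limma unadjusted p of 0.0293, adjusted p = 0.987).

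Sfrp1, a Frizzled-related decoy that binds WNT ligands, had 5 probe sets, all with lower means in TGFB corneas. The brightest, 1448395_at, had 134.6, 163.7, 375 and 373 in TGFB arrays, against 486, 291, 615 and 215 in wildtype arrays. TGFB 1 and TGFB 2 were lowest, and TGFB 3 and TGFB 4 stood above wildtype 2 and wildtype 4. Its difference was -0.61 (SE 0.41, adjusted p = 0.906), and leaving out 1 array gave -0.86 (without wildtype 4) to -0.36 (without TGFB 1). Without TGFB 1, TGFB 2 and wildtype 2 it was -0.099 (SE 0.43), and that of 1428136_at was -0.0020 (SE 0.43). The same 2 arrays, TGFB 1 and TGFB 2, were the lowest of the 8 in each of the 5 probe sets. They also had the lowest summed signals of the lens, pigment cell, keratocyte and retina lists. The pigment cell sums were 3142 and 6339 in TGFB 1 and TGFB 2, and 14318 or more elsewhere. The keratocyte sums were 15101 and 14957 in these arrays, and 18942 or more elsewhere. Of 7 lens genes, 6 were measured and all 6 had lower means in TGFB corneas. Their summed signals were 50.2, 53.0, 2719 and 11278 in TGFB arrays, against 5622, 113.9, 16772 and 644 in wildtype arrays. The lens sums were highest in wildtype 3, TGFB 4, wildtype 1 and TGFB 3, which are also the 4 highest arrays of Sfrp1 1448395_at and 1428136_at. The corneal epithelium keratin Krt12 was highest in the same 4 arrays (5766, 4551, 5146 and 4161 in that order). Other genes of the corneal epithelium list had another order. Krt5, Krt14 and Cdh1 were highest in TGFB 2, and Pax6, Tkt and Aldh3a1 were higher in wildtype 2 than in TGFB 3. The part of lens, keratocyte, retina or corneal epithelium markers in the Sfrp1 values was not tested. That of pigment cell markers was not tested beyond the fit that holds their mean.

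The other Sfrp1 probe sets gave -0.63 (1428136_at, SE 0.44), -0.35 (1438620_x_at, SE 0.27), -0.29 (1416594_at, SE 0.44) and -0.54 (1460187_at, SE 0.21). The last of these was dim, with signals of 8.21 to 20.2 in TGFB and of 19.0 to 40.8 in wildtype arrays, and it alone had an unadjusted limma p under 0.05 (0.0299, adjusted p = 0.837). Since they read the same transcript, these are not independent measurements. In the fit that holds the pigment list mean, the brightest probe set had 0.59 (SE 0.35) and 1416594_at had 1.03 (SE 0.34), while 1460187_at gave -0.00064.

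Sfrp2, of the same decoy family, had the higher mean in TGFB corneas. Its probe set 1448201_at had 430, 347, 206 and 243 in TGFB arrays, against 135.0, 187.4, 137.7 and 325 in wildtype arrays. All TGFB arrays were above wildtype 1, wildtype 2 and wildtype 3, and only wildtype 4 overlapped them. The means were 8.28 ± 0.46 in TGFB and 7.65 ± 0.55 in wildtype corneas, a difference of 0.63 (SE 0.31, 95% confidence interval -0.063 to 1.33, limma unadjusted p of 0.0698, adjusted p = 0.867). Without wildtype 4, the array with the highest Gapdh ratio and the highest Kera, it was 0.89 (SE 0.26, limma unadjusted p of 0.00836, adjusted p = 0.285). Leaving out 1 array gave 0.46 to 0.89. In the fit that holds the pigment list mean the Sfrp2 difference was -0.29 (SE 0.24), the 1 setting of 20 in which its sign turned. The pigment list mean itself differed by -1.78 between the groups.

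Sfrp4 and Wif1 did not separate the groups. Sfrp4 (1451031_at) had 221.5, 210.9, 132.4 and 119.7 in TGFB arrays, against 221.4, 337, 163.8 and 132.7 in wildtype arrays. The 2 groups overlapped over most of their range, with wildtype 2 highest and a difference of -0.26 (SE 0.30, adjusted p = 0.931). Leaving out 1 array gave -0.44 (without wildtype 4) to -0.029 (without wildtype 2). Beside the cornified epidermis list mean it was -0.48 (SE 0.19, limma unadjusted p of 0.0353, adjusted p = 0.743). The Sfrp4 difference kept its sign in all 20 settings.

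Wif1, a secreted protein that binds WNT ligands through its WIF domain, had signals of 301, 323, 198.0 and 187.9 in TGFB arrays, against 339, 356, 386 and 181.9 in wildtype arrays (1425425_a_at). Wildtype 1, 2 and 3 stood above all TGFB arrays and wildtype 4 below them all. The difference was -0.29 (SE 0.27, adjusted p = 0.921). Without wildtype 4 it was -0.52, with an unadjusted limma p of 0.0388 and an adjusted p of 0.402.

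**Figure D2:**
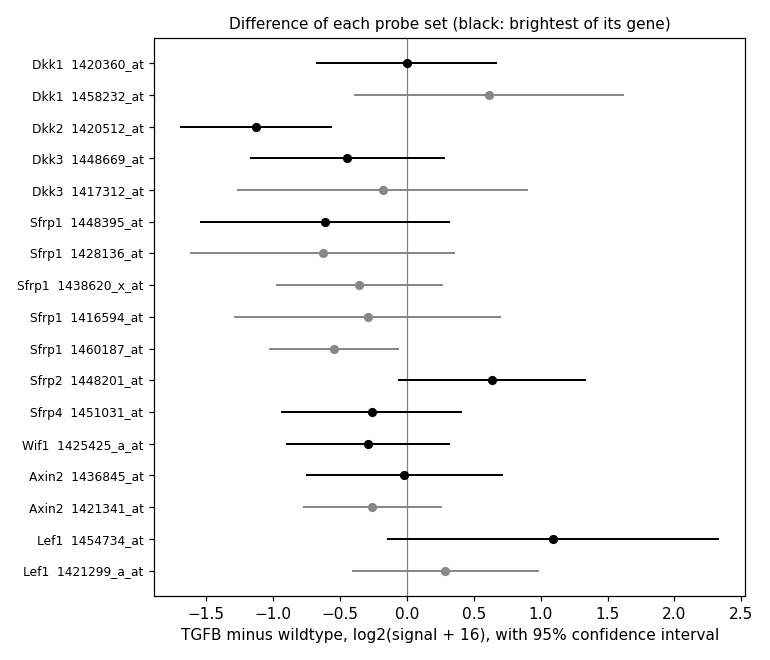
Difference of each of the 17 probe sets, TGFB minus wildtype in log2(signal + 16), as a point with its 95% confidence interval from limma; the brightest probe set of each gene is in black and the others in grey. The intervals of Dkk2 (-1.69 to -0.56) and of Sfrp1 1460187_at (-1.02 to -0.066) are the ones that do not reach 0.

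Of the readout genes, Axin2 had nearly equal means. Its bright probe set 1436845_at had 198.5, 266.0, 98.3 and 99.3 in TGFB arrays, against 161.9, 175.8, 192.8 and 101.7 in wildtype arrays. TGFB 1 and TGFB 2 were the highest of the 8 arrays and TGFB 3 and TGFB 4 the lowest, with the wildtype arrays between them. The means were 7.39 ± 0.65 in TGFB and 7.41 ± 0.37 in wildtype corneas (difference -0.018, SE 0.32, 95% confidence interval -0.75 to 0.71, adjusted p = 0.996). Between TGFB 3 and TGFB 4 and the 3 wildtype arrays poor in cornified transcripts the difference was -0.51 (SE 0.28, limma adjusted p = 0.987). Of those wildtype arrays, wildtype 4 (101.7) lay close to TGFB 3 and TGFB 4 (98.3 and 99.3). The second probe set, 1421341_at, stayed at signals of 2.14 to 16.5 in TGFB and of 5.43 to 18.2 in wildtype arrays, where the scale used here compresses any change.

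Lef1, which is active in skin and hair follicles, had the largest positive difference of the 17 probe sets, and TGFB 1 and TGFB 2 carried it. Probe set 1454734_at had signals of 137.6, 281.5, 44.4 and 27.3 in TGFB arrays, against 24.0, 57.5, 29.8 and 26.9 in wildtype arrays. The 3 highest arrays were TGFB 2, TGFB 1 and wildtype 2, and TGFB 3 and TGFB 4 lay within the wildtype range. The means were 6.71 ± 1.27 in TGFB and 5.62 ± 0.40 in wildtype corneas, a difference of 1.09 (SE 0.55, 95% confidence interval -0.14 to 2.33, limma adjusted p = 0.871). Without TGFB 2 it was 0.59.

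The arrays highest in the brighter Lef1 probe set were those high in skin markers. The hair follicle list, 8 genes such as the inner root sheath keratins Krt25, Krt27 and Krt71, had mean log2 values of 7.59, 7.46 and 6.84 in TGFB 1, TGFB 2 and wildtype 2 and of 4.78 to 4.90 in the other 5 arrays. Its summed signal ran from 105.3 to 2219 in TGFB and from 136.1 to 1287 in wildtype arrays. Lef1 was higher in TGFB 2 (281.5) than in TGFB 1 (137.6), while the hair follicle mean was higher in TGFB 1. Without these 3 arrays the Lef1 difference was 0.26 (SE 0.22, adjusted p = 0.987). With the cornified epidermis list mean as a covariate it was 0.64 (SE 0.28, limma unadjusted p of 0.0457, adjusted p = 0.747). The part of skin markers in the Lef1 values was not tested beyond these settings. The second Lef1 probe set, 1421299_a_at, was at most 31.1 in TGFB and 6.82 in wildtype arrays, with TGFB 2 highest, whereas TGFB 1 had 1.78 and lay within the wildtype range.

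**Figure D3:**
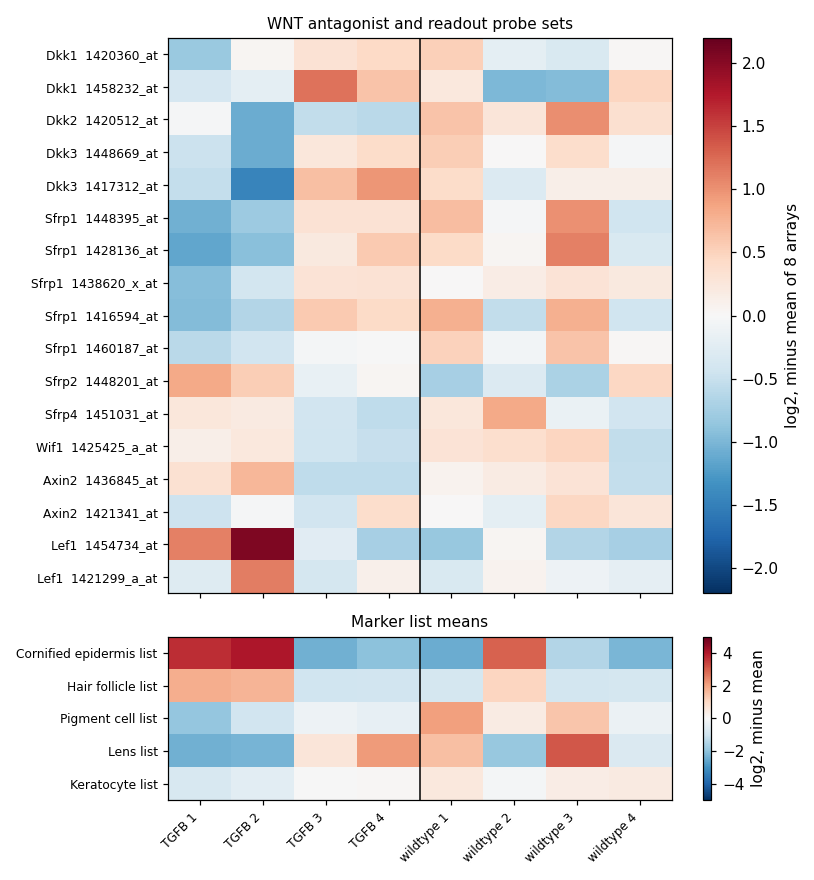
Colour gives each array's log2(signal + 16) minus the mean of the 8 arrays, for the 17 probe sets (upper panel) and for the means of 5 marker lists (lower panel, wider colour scale), with TGFB arrays left of the line. Lef1 1454734_at and the cornified epidermis and hair follicle lists are highest in TGFB 1, TGFB 2 and wildtype 2, while Sfrp1 and Dkk3 are lowest in TGFB 1 and TGFB 2.

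Most of the 9 genes followed 1 of 3 array patterns, given here as a description with no test. Dkk2 divided the arrays by group. The brighter Lef1 probe set and, in the opposite direction, Sfrp1 and Dkk3 set TGFB 1 and TGFB 2 apart from the rest. Sfrp4, Wif1 and the bright Axin2 probe set shared their 3 lowest arrays, TGFB 3, TGFB 4 and wildtype 4.

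For Dkk2, Sfrp1 and Lef1, the genes whose brightest probe set spanned more than 2 log2 units, the closest profiles among 8189 (Dkk2 and Sfrp1) or 8190 (Lef1) genes were sought over the 8 arrays, as the root mean square (RMS) difference of centred log2 values. Closest to Dkk2 were Mylk, the myosin light chain kinase (RMS 0.29), Pde5a, a phosphodiesterase of cyclic GMP (0.30), and Ripply3 (0.31). Mylk had signals of 420 to 828 in TGFB and of 791 to 1723 in wildtype arrays. Closest to Sfrp1 were Pcbp3 (0.15), the desmosome protein Pkp2 (0.16) and Necab2 (0.19). Closest to Lef1 were the transcription factor Cebpb (0.22), Lrrc28 (0.25) and Tlcd3a (0.26). All profiles come from the same arrays and so share their tissue content.

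**Figure D4:**
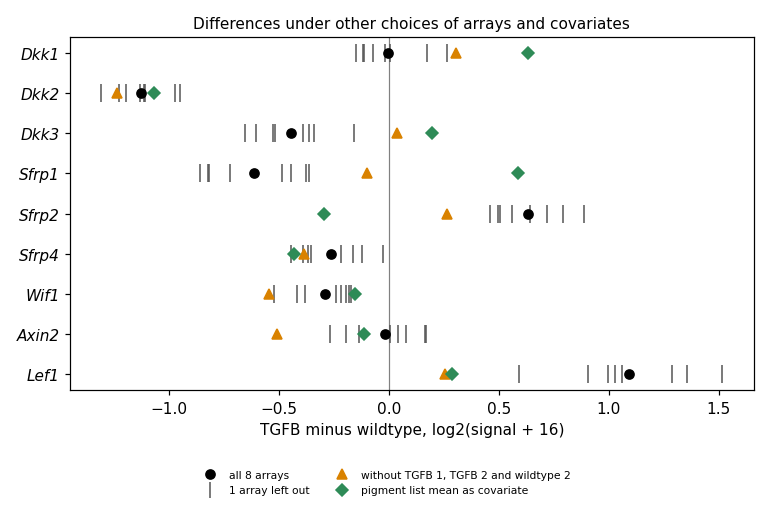
Differences of the brightest probe set of each gene, TGFB minus wildtype in log2(signal + 16), with all 8 arrays (black), with 1 array left out (ticks), without TGFB 1, TGFB 2 and wildtype 2 (triangles) and in a fit that holds the pigment list mean (diamonds). Dkk2 stays between -1.31 and -0.95, whereas Dkk1, Dkk3, Sfrp1, Sfrp2 and Axin2 lie on both sides of 0.

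Among 74 other genes of the pathway in 4 lists, 72 were measured, and limma called 0 of them at an adjusted p under 0.05. At an unadjusted p under 0.05, 5 were higher in TGFB corneas (6.94%) and 1 was lower (1.39%), where 2.69% and 4.54% of all 18193 genes were. Over all named genes the median difference was -0.014 and 47.4% had the higher mean in TGFB corneas.

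Of the other secreted or membrane inhibitors, 10 of 15 measured genes had higher means in TGFB corneas (median difference 0.24). Tpbg, a membrane glycoprotein that inhibits WNT signalling, had 139.2, 165.0, 170.2 and 152.6 in TGFB arrays, against 94.5, 137.1, 107.9 and 116.1 in wildtype arrays. All TGFB arrays were above all wildtype arrays, as for 1.48% of named genes, with a difference of 0.42 (SE 0.14, limma adjusted p = 0.837). Znrf3, a ubiquitin ligase that removes Frizzled from the surface and is itself WNT-induced, had a difference of 0.45 (SE 0.20, adjusted p = 0.846). TGFB 1 and TGFB 2 were its highest arrays (195.3 and 243.9). TGFB 3 and TGFB 4 (151.1 and 149.4) lay within the wildtype range of 104.9 to 162.4. The decoy Sfrp5 was dim and had -0.49 (SE 0.27).

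Of 23 genes of the receptors and the R-spondin system, 11 had higher and 12 lower means (median difference -0.00032). That median is the value of Lrp5, whose signals were only 0.73 to 13.9. Lgr6, an R-spondin receptor of skin and hair follicle stem cells, had signals of 226.5, 330, 141.6 and 126.6 in TGFB arrays, against 29.9, 100.3, 25.3 and 137.6 in wildtype arrays. TGFB 4 lay below wildtype 4, the only overlap, and the difference was 1.45 (SE 0.46, limma unadjusted p of 0.0120, adjusted p = 0.837). The receptor Fzd6 had 786 to 936 across TGFB arrays and 616 to 719 across wildtype arrays without overlap (difference 0.34, SE 0.13, adjusted p = 0.837). The R-spondin receptor Lgr5 had a difference of 0.67 (SE 0.37, adjusted p = 0.887), although wildtype 4 (171.5) was its highest array.

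Of 17 measured intracellular transducers, 12 had higher means (median 0.070). Apc, a scaffold of the complex that degrades beta-catenin, had a difference of -0.55 (SE 0.23, limma unadjusted p of 0.0421, adjusted p = 0.840). The corepressors Tle4 and Tle2 differed by -0.59 (SE 0.30) and 0.66 (SE 0.37), although wildtype 4 (143.6) was the highest array of Tle2. Of 17 other readout genes, 13 had higher means (median 0.13). That list also holds Porcn and Wls, which modify and carry WNT ligands and are not targets. The hyaluronan receptor Cd44 had a difference of 0.38 (SE 0.16, adjusted p = 0.839) and Porcn one of 0.32 (SE 0.24). The growth regulator Myc had a difference of 0.55 (SE 0.26, adjusted p = 0.850). Its highest arrays were TGFB 2 (270.4) and TGFB 1 (196.0), while TGFB 3 and TGFB 4 (124.8 and 132.5) lay within the wildtype range of 86.8 to 150.7.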

How the data were processed

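Per the labels, corneal RNA of 4 TGFB and 4 wildtype samples was measured on one-colour arrays. The deposited intensities are linear, never negative and have a 2% trimmed mean of 150.0 on every array; the tool that made them is not given in the sources used here. They were used without further scaling, as log2(signal + 16). The 64 control probe sets were left out. Symbols come from a platform annotation of 2016, updated by Entrez ID through a RefSeq table (34741 of 34945 probe sets with 1 symbol matched; 932 have several symbols).

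TGFB and wildtype arrays were tested against each other in R 4.3.3 with limma 3.58.1 (lmFit, then eBayes, 9.21 total degrees of freedom), with every probe set in the fit and Benjamini-Hochberg adjustment over all 45037. The fit was first tested on simulated data of that size. The number of arrays limits the precision.

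All member probe sets are named. Each pathway list names the 3 genes with the smallest p, and likeness names the 3 nearest genes with a mean log2 value over 7. A gene's brightest probe set stands for it in lists. The members and lists were chosen with earlier results of these data known. Alternatives were other offsets, scalings, filters, units, weights, covariates and omitted arrays; the Gapdh ratio as covariate was added after seeing the data.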

Additional observations from a re-analysis of the deposited data

Results flagged for a closer look

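In none of the 34 groups of 4 arrays (17 probe sets, TGFB and wildtype) did the highest or lowest array stand apart from the others beyond Dixon's 95% critical value on the log2 scale.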

How the results depend on the processing

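Over 20 alternatives, no probe set of the 9 genes passed at an adjusted p under 0.05 (smallest 0.218, for Dkk2 without wildtype 4). Of 330 differences, 301 kept their sign, and 7 of the 17 probe sets kept it throughout, among them Dkk2. Signs turned as follows, and the cause was not tested. In the fit that holds the pigment list mean, Dkk1 1420360_at was 0.63, Dkk3 1448669_at 0.20, Dkk3 1417312_at 0.56, Sfrp2 -0.29, Sfrp1 1448395_at 0.59, 1428136_at 0.48, 1438620_x_at 0.066 and 1416594_at 1.03. The pigment list itself differed by -1.78 between the groups, and so moves with the group. Without TGFB 1, TGFB 2 and wildtype 2, Dkk1 1420360_at was 0.31, Dkk3 1448669_at 0.035, Dkk3 1417312_at 0.59, Sfrp1 1438620_x_at 0.14 and 1416594_at 0.13. With the cornified epidermis list mean, Dkk1 1420360_at was 0.17, Dkk3 1417312_at 0.20 and Sfrp1 1416594_at 0.022. With array weights, Dkk1 1420360_at was 0.075 and Dkk3 1417312_at 0.047, and with an offset of 32, Dkk1 1420360_at was 0.0044. Leaving out 1 array gave -0.15 to 0.27 for Dkk1 1420360_at, -0.53 to 0.27 for Dkk3 1417312_at, -0.27 to 0.17 for Axin2 1436845_at and -0.040 to 0.46 for Lef1 1421299_a_at.

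With limma, 0 probe sets of the whole table passed at adjusted p under 0.05, and leaving out 1 array gave 0 to 2, with the 2 found without wildtype 4. At an unadjusted p under 0.05 there were 2641, and leaving out 1 array gave 2026 (without TGFB 1) to 5249, with 5249 found without wildtype 4. Array weights gave 4441, the filter on dim probe sets 1546, 1 probe set per gene 1284 and the fit that holds the pigment list mean 1608. The filter and the gene unit test fewer probe sets (27022 and 18193). No paired analysis was possible because the labels give the groups no shared replicate numbers. Dim probe sets (Axin2 1421341_at, Lef1 1421299_a_at, Sfrp1 1460187_at) sit near the offset of 16, where differences are understated.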

Other observations

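Dkkl1, a gene related to the DKK family and chosen here after its values were seen, followed the arrays rich in cornified transcripts. Its signals were 236.1, 289.6, 1.43 and 15.6 in TGFB arrays, against 1.66, 48.6, 13.1 and 1.34 in wildtype arrays. TGFB 1, TGFB 2 and wildtype 2 were its 3 highest arrays, as for Lef1, and the difference was 1.55 (SE 0.92, limma adjusted p = 0.894).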
